A study of Caenorhabditis elegans with 4 samples.

Results

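The left arm of chromosome IV of Caenorhabditis elegans, taken here as its first 4.5 Mb, held 348 of the 6192 regions that the authors called as bound by GEI-11 in both ChIP replicates together. The members are all regions of that combined list on chromosome IV whose midpoint lies below 4.5 Mb, in WS220 coordinates counted from 1. The rule uses position alone, although the members, lists and areas were chosen with earlier results of these data known. The list of replicate 1 alone held 232 regions in the same span, of 4368 in all, and that of replicate 2 held 149 of 2617. The name follows the position only: the upper bound is where the left piRNA domain is usually said to begin, and no property of chromatin or recombination was measured here.

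The data come from chromatin immunoprecipitation and sequencing (ChIP-seq) on whole hermaphrodites of larval stage L3, kept at 20 °C and fixed with 2% formaldehyde. The tested samples were 2 anti-GFP ChIP libraries, precipitated with an affinity-purified goat antibody, and the controls were 2 input DNA libraries. All 4 came from strain OP179, which is mutant for unc-119(ed3) on chromosome III. It carries the transgene wgIs179, made of unc-119(+) and of gei-11::TY1::EGFP::3xFLAG, so tagged gei-11 and rescuing unc-119 were present in the controls too. The transgene was introduced by bombardment, its place of insertion is not given in the sources used here, and the tag reports all tissues of the animal mixed. Nothing in the labels ties the replicates to separate cultures, so their spread may be technical. The ChIP libraries held between 3560372 and 3773496 reads and the input libraries between 7222788 and 8331974.

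GEI-11, also called SNPC-4, is a Myb-domain protein of the complex that recognises the upstream element of small nuclear RNA promoters. In worms it also acts on the many small transcription units that make piRNAs, which guide the PRG-1 Argonaute protein to silence foreign sequence in the germline. Most of these units lie in a pair of broad domains on chromosome IV, and the left arm lies just outside the first of them. The outer parts of worm autosomes, the arms, are in general richer in repeats and recombine more than the gene-dense centres.

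Regions were more closely packed on the left arm than on the other chromosomes, and less so than anywhere else tested on chromosome IV. The arm had 77.3 combined regions per Mb (95% exact Poisson interval 69.4 to 85.9). The other 5 chromosomes together had 52.5 per Mb (50.9 to 54.1), so the arm was 1.47 times as dense (95% exact interval 1.32 to 1.64, two-sided exact binomial test, adjusted p = 8.8e-11). It was less dense than the left piRNA domain, from 4.5 to 7 Mb, with 103 per Mb (ratio 0.75, 0.64 to 0.89, exact binomial test, adjusted p = 0.00058). It was also less dense than the centre, from 7 to 14 Mb, with 99.0 per Mb (ratio 0.78, 0.68 to 0.89, exact binomial test, adjusted p = 0.00021). This centre takes in the dense bin from 13.5 to 14 Mb, with 81 regions. With the centre ended at 13.5 Mb, its ratio was 0.82 (0.72 to 0.94). Against the right piRNA domain, from 14 to 17 Mb, with 170 per Mb, the ratio was 0.46 (0.40 to 0.52, exact binomial test, adjusted p = 1.5e-29). With only the regions that both replicate lists overlap, that ratio was 0.71, as was the one to the left piRNA domain, and with regions within 5000 bp merged it was 0.73. The adjustment is over these 4 tests.

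Each replicate list gave the same order. In replicate 1 the arm had 51.6 regions per Mb, and its ratios were 1.40 to the other chromosomes, 0.70 to the left piRNA domain, 0.73 to the centre and 0.42 to the right piRNA domain. In replicate 2 the arm had 33.1 per Mb, and the ratios in the same order of areas were 1.47, 0.74, 0.78 and 0.54. All 8 of these comparisons passed the exact binomial test, with adjusted p between 1.6e-25 and 0.017. The test treats regions as independent, which near neighbours are not, so its p-values are too small. With regions within 5000 bp merged into 1, the arm no longer passed against the left piRNA domain (ratio 0.82) or the centre (ratio 0.85, exact binomial test, adjusted p = 0.089 for each). Against the other chromosomes the merged ratio fell to 1.23 (1.05 to 1.42, exact binomial test, adjusted p = 0.015).

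The arm also stood above the matching ends of the other chromosomes. Their first 4.5 Mb held 189 combined regions on chromosome I, 154 on II, 233 on III, 172 on V and 214 on X. Every one of these ends thus had fewer regions than the 348 of chromosome IV. Pooled, they had 42.8 per Mb, and the arm was 1.81 times as dense (95% exact interval 1.60 to 2.05, exact binomial test, adjusted p = 4.2e-19). This comparison was added after the data were seen. In replicate 1 the arm had 51.6 per Mb and the pooled ends 29.2, and in replicate 2 the arm had 33.1 and the ends 16.9.

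The excess over other chromosomes was smaller in bases than in number, and the arm's regions were narrower. The 348 regions covered 122.6 kb, which is 2.72% of the arm, while regions covered 2.41% of the other chromosomes and 1.88% of their first 4.5 Mb. The share was 3.11% in the left piRNA domain, 3.41% in the centre and 3.15% in the right piRNA domain. The arm's median width was 310.5 bp (interquartile range 200 to 416), against 369 bp (288 to 528) on the other chromosomes. Median width was 293 bp in the left piRNA domain, 302 bp in the centre and 134 bp in the right piRNA domain, so the arm was close to its nearest neighbours in this respect. Very short calls, under 50 bp wide, made up 17 members or 4.89%, beside 5.51% over the whole list. The share was 2.38% on the other chromosomes and 2.29% in their first 4.5 Mb, both lower than in the arm. The left piRNA domain had 11.3% of such calls, the centre 7.79% and the right piRNA domain 25.9%.

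**Figure D1:**
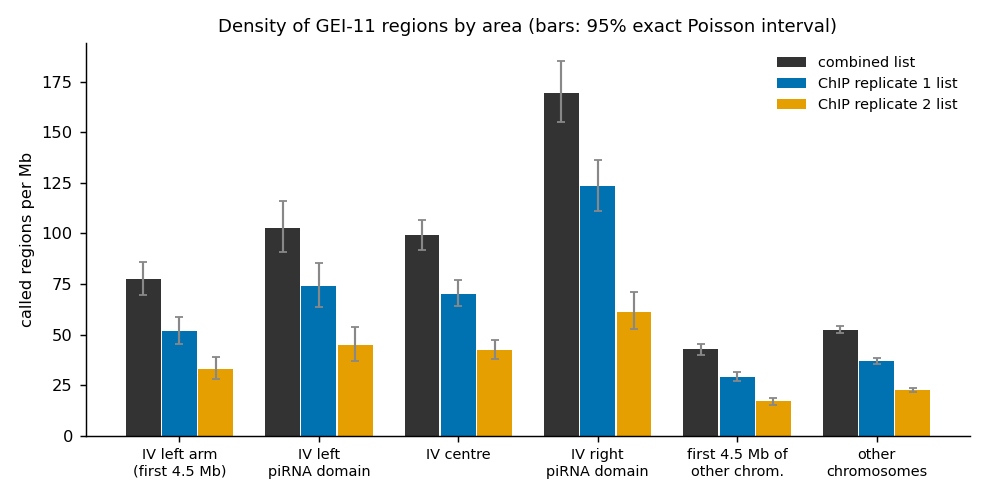
Called regions per Mb (vertical axis) in the left arm of chromosome IV, 3 other areas of that chromosome, the first 4.5 Mb of the other 5 chromosomes and all of those chromosomes, for the combined list and each ChIP replicate list, with error bars for 95% exact Poisson intervals. In each list the left arm lies below the other areas of chromosome IV and above the other chromosomes, at 77.3 against 52.5 per Mb in the combined list.

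Along the arm, regions were spread over its whole length with no single dense stretch. In 9 bins of 0.5 Mb, counted from the left end, the combined list had 46, 32, 30, 46, 23, 47, 31, 44 and 49 regions. Replicate 1 had 34, 21, 19, 30, 17, 28, 26, 22 and 35 in the same bins, and replicate 2 had 18, 14, 14, 16, 8, 19, 15, 17 and 28. In 8 of the 9 bins the combined number was above 24, the median of 163 full bins of the other chromosomes. The 25 full bins to the right on chromosome IV held 36 to 99 regions, with a median of 49, and 12 of them held more than the fullest bin of the arm.

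The bin from 2.0 to 2.5 Mb was the emptiest in all 3 lists, and also the emptiest of the 35 bins of chromosome IV in the combined list. Its 23 regions (95% exact Poisson interval 14.6 to 34.5) covered 1.43% of its bases. The longest stretches of the arm without a combined region lay at and beyond its right edge. One ran from 2412873 to 2495168, or 82.3 kb, and the next from 2495480 to 2599550, or 104 kb, with a single region of 311 bp between them. Replicate 2 called nothing in either stretch, and replicate 1 called 2 regions in the longer one. The third longest stretch, of 76.8 kb, ran from 683484 to 760259 and was empty in all 3 lists. No combined region was called in the first 51202 bp of the chromosome, and the first one lay at 51203 to 51603.

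The bin from 4.0 to 4.5 Mb, which borders the left piRNA domain, was the fullest in all 3 lists. It had 49 combined regions (95% exact Poisson interval 36.2 to 64.8), and these covered 4.28% of its bases, the highest share of the 9 bins. Of these, 22 were in both replicate lists, the most of the 9 bins of the arm, although the share, 44.9%, was no higher than the 45.2% of the bin from 3.0 to 3.5 Mb. The next bin, inside the piRNA domain, held 36 regions, so the number did not climb across the boundary. The last member before the bound lay at 4482790 to 4482989, and the first region beyond it at 4506778 to 4506997.

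**Figure D2:**
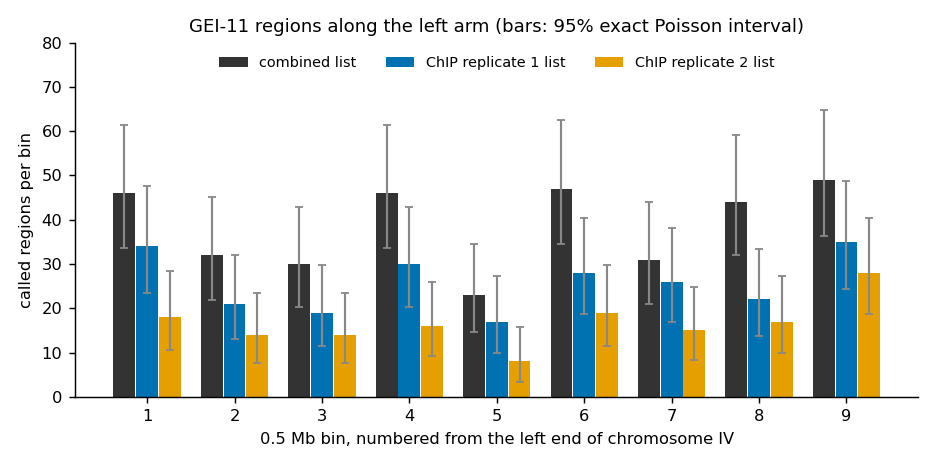
Called regions (vertical axis) in each of 9 bins of 0.5 Mb, numbered from the left end of chromosome IV, in the combined list and each ChIP replicate list, with error bars for 95% exact Poisson intervals. Bin 5 is the lowest in all 3 lists, with 23, 17 and 8 regions, and bin 9 the highest, with 49, 35 and 28.

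Strength is given as −log10 of the q-value that the authors deposited for a region. It ranks regions within a list and grows with depth and with pooling, so it is no measure of occupancy between lists, and single regions carry no error. The arm's median strength was 3.89 (interquartile range 2.72 to 7.45), against 4.14 (2.72 to 7.71) on the other chromosomes and 4.14 over the whole list. Most members were thus weak, as were most regions of the whole list, with an interquartile range of 2.78 to 7.63. Of the 348 members, 62 had a strength over 10, 18 over 20 and 4 over 50. Shares of the whole list over these values are not given here, so these counts are no trait of the arm. The strongest 10% of the whole list, 620 regions, included 32 arm regions, or 9.20% of the arm (95% exact interval 6.37 to 12.7%).

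The 4 strongest regions of the arm all lay between 0.5 and 1 Mb, a bin with only 32 regions. The strongest spanned 866802 to 867549, or 748 bp, and had a combined strength of 129, with 83.6 in replicate 1 and 85.6 in replicate 2. It was number 29 of the whole list as analysed here, and 4 regions of chromosome IV were stronger, 3 in the centre and 1 in the right piRNA domain. The second spanned 657839 to 659101 with a strength of 94.5, against 63.4 in replicate 2. In replicate 1 it was 2 regions, of 392 bp with a strength of 48.5 and of 173 bp with 2.55. The third lay to its left, from 654542 to 655621, with a strength of 79.2, against 49.7 and 52.7 in replicates 1 and 2. These neighbours were called apart in all 3 lists. The fourth spanned 991050 to 991483, only 434 bp, with a strength of 50.3, against 25.1 in replicate 1 and 27.7 in replicate 2. In all 4 the replicate 2 strength was the higher of the replicates.

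The next regions were spread over the rest of the arm. The fifth spanned 1658790 to 1659459 and had a strength of 40.3, with 23.3 in replicate 1 and 19.1 in replicate 2. The sixth spanned 3519294 to 3519796, at 36.7, with 18.0 in replicate 1 and 19.8 in replicate 2. A compact region of 363 bp from 4390473 to 4390835, the narrowest of the 20 strongest in both replicates, reached 33.7, with 16.0 and 20.7 in replicates 1 and 2. The next 4 regions had combined strengths between 29.0 and 32.0. They spanned 4347162 to 4348048, 2388913 to 2389353, 385063 to 385834 and 3294517 to 3294964. In replicate 1 these 4 had strengths between 13.9 and 19.6, and in replicate 2 between 13.0 and 19.3, so the replicates overlapped in range.

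The remaining 9 of the 20 had combined strengths between 18.8 and 27.9. A region from 2601863 to 2602854 had a strength of 26.9 and one from 1420056 to 1420557 had 26.5. One from 3050125 to 3050962 reached 25.9 and one from 4049480 to 4049898 reached 24.9. Those from 884744 to 885118 and from 1070275 to 1070835 closed the set, at 18.9 and 18.8. The other 3 of these 9 were broad and, like the second strongest, came apart into pieces in at least 1 replicate list. They are described with the widths below. Over all 20, replicate 1 had the higher strength in 9 and replicate 2 in 11, and each was between number 29 and number 426 of the whole list. By position, 5 of the 20 lay in bin 2 and 4 in bin 9, and every bin held at least 1.

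**Figure D3:**
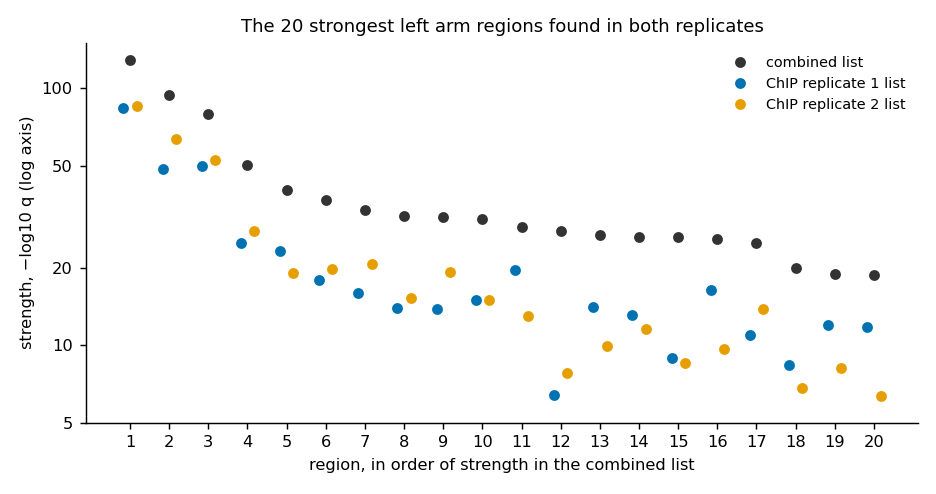
Strength (−log10 q, log axis) of the 20 strongest left arm regions that both replicate lists overlap, in order of strength in the combined list, with a point for the combined list and for each ChIP replicate list. The combined strengths fall between 18.8 and 129, and neither replicate is above the other throughout.

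Where calls of the replicates overlapped, most lay at nearly the same place. Both sets below were chosen for overlap, which by itself favours small distances. Midpoints of the 20 regions differed from the combined list by a median of 22 bp in replicate 1 and 42 bp in replicate 2. The strongest overlapping replicate region was used for each. The largest differences were 742.5 bp in replicate 1 and 868 bp in replicate 2, both in the widest member. Over the arm, 123 regions of replicate 1 and replicate 2 were each other's largest overlap, and their midpoints lay a median of 32.5 bp apart (interquartile range 12 to 67 bp). Over the whole genome 2197 such pairs lay a median of 30 bp apart. Strengths in the 123 pairs rose together, with a Spearman's rho of 0.74 across regions, as it was over the 2197 pairs of the genome. This is a description, since regions are not replicates and both lists rest on the same combined input signal. Replicate 1 was the stronger in 79 of the 123 pairs, or 64.2%, beside 68.4% of the pairs of the genome.

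Support in the replicates was close to that of the whole list. Of the 348 members, 122 overlapped regions of both replicate lists by at least 1 bp, which is 35.1% (95% exact interval 30.0 to 40.3%), beside 35.2% over all combined regions. Replicate 1 alone overlapped 88, or 25.3%, beside 28.1%, and replicate 2 alone overlapped 23, or 6.61%, beside 6.09%. Neither overlapped 115, or 33.0%, beside 30.7%. Each whole-list share lies within the arm's interval. Counted from the replicate lists, 125 of the 149 replicate 2 regions, or 83.9%, overlapped a replicate 1 region, beside 84.5% genome-wide. In the other direction 126 of 232 replicate 1 regions, or 54.3%, overlapped a replicate 2 region, beside 51.1%.

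Whether a member was found in both replicates followed its strength. The whole combined list was cut by strength into 10 classes of equal size, class 1 being the strongest. All 32 members in class 1 and all 37 in class 2 were in both replicate lists. The number was 28 of 33 in class 3, 15 of 29 in class 4, 9 of 34 in class 5 and 1 of 38 in class 6. As shares these were 84.8, 51.7, 26.5 and 2.63%, beside 82.6, 48.8, 19.0 and 3.72% of the same classes of the whole list. None of the 145 members in the weaker classes 7 to 10 was in both. Members in both lists had a median strength of 10.0 and never fell below 3.99. The median was 3.63 for those in replicate 1 only, 4.12 for those in replicate 2 only and 2.51 for those in neither. Strength and support come from the same reads, so this is no independent check, and a region missing from a replicate list is not shown to be unbound there.

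The strongest members with partial support were moderate. In replicate 1 only, the strongest was at 957824 to 958274, with a strength of 8.29 in the combined list and 5.99 in replicate 1. It was followed by 1213227 to 1213555 at 7.57 and 682881 to 683483 at 6.67. In replicate 2 only, the strongest was at 2785117 to 2785442, with 6.77 in the combined list and 4.78 in replicate 2. The next were 2603781 to 2604215 at 6.32 and 2390217 to 2390631 at 6.06. Among members that neither replicate list held, the strongest were at 4464349 to 4464708 with 4.91, 427193 to 427554 with 4.88 and 4449868 to 4450287 with 3.92.

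A few replicate regions of the span had no combined counterpart. These were 18 of the 232 regions of replicate 1, or 7.76%, beside 8.45% genome-wide, and 1 of the 149 regions of replicate 2, or 0.671%, beside 0.726%. The 18 were narrow and weak, with a median width of 76 bp and strengths of 2.02 to 3.92. The strongest spanned 3649467 to 3649666, with 3.92, and those next in strength, at 2032023 to 2032104 and 2510151 to 2510324, both had 3.14. The one of replicate 2, at 991786 to 991849, had 2.40 and lay within 1 kb of the fourth strongest member.

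**Figure D4:**
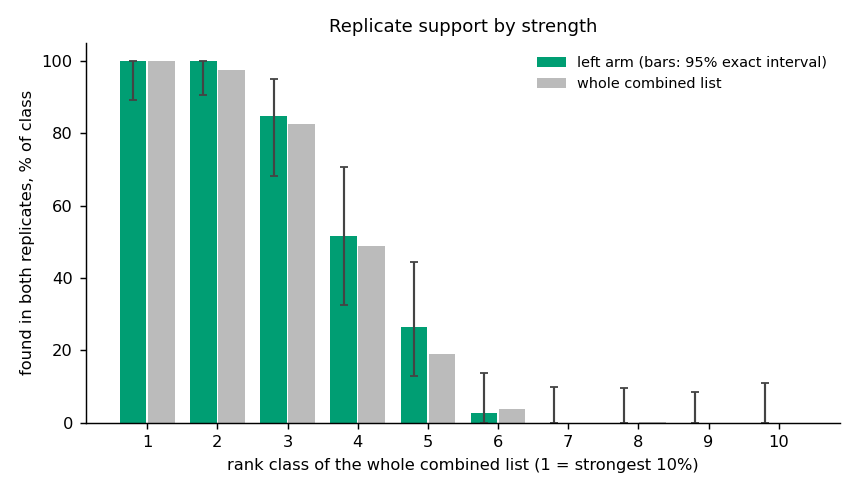
Share of regions found in both replicate lists (vertical axis, percent) in 10 rank classes of the whole combined list, class 1 being the strongest, for the left arm with 95% exact intervals and for the whole list. The arm follows the whole list, at 100% against 97.6% in class 2 and 51.7% against 48.8% in class 4.

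Width rose with strength in the arm. Across the 348 members Spearman's rho between width and strength was 0.78, against 0.58 across all 6192 regions. This is a description across regions of 1 list, and the difference was not tested. Members in both replicate lists had a median width of 436 bp (interquartile range 351 to 663), those in replicate 1 only 284 bp, those in replicate 2 only 326 bp and those in neither 193 bp. Over the whole list these medians were 457, 318, 309 and 246.5 bp in the same order. None of the 122 members in both lists was under 50 bp wide, and neither was any of the 2179 such regions of the whole list.

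Of the 5 widest members, 3 came apart into pieces in at least 1 replicate list and 2 were a single region in each. The widest of all, from 4469713 to 4472096, spanned 2384 bp with a strength of 27.9. In replicate 1 it was 3 regions of 773, 668 and 265 bp with strengths of 6.40, 3.81 and 2.59. In replicate 2 it was also 3 regions, of 648, 495 and 401 bp, with strengths of 7.81, 3.73 and 3.11. A member of 1565 bp from 1836635 to 1838199, at 26.3, was 2 regions in replicate 1, with strengths of 3.84 and 8.94, and 1 region in replicate 2, with 8.51. One of 1427 bp from 3384516 to 3385942, at 20.1, was 1 region of 1142 bp in replicate 1 and 2 regions in replicate 2. The second widest member, from 2709664 to 2711552, spanned 1889 bp but had a strength of only 9.74, with a single region in each replicate list at 3.53 in replicate 1 and 2.55 in replicate 2. A member of 1530 bp from 4405103 to 4406632, at 17.8, was likewise a single region in each. No region of either replicate list in the span was wider than 1217 bp, so wider ones occurred there in the combined list only.

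**Figure D5:**
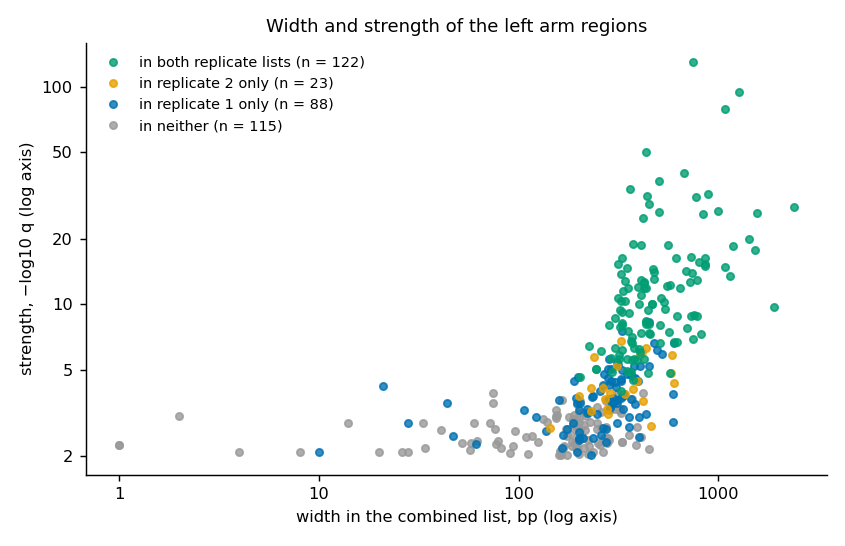
Width in bp and strength as −log10 q, both on log axes, of the 348 left arm regions of the combined list, coloured by the replicate lists that overlap them. The 122 regions found in both lie at the upper right, with a median width of 436 bp and a median strength of 10.0, and the 115 found in neither lie at the lower left, at 193 bp and 2.51.

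Members often had near neighbours, as did regions in the other areas of chromosome IV. The median gap between neighbouring members was 6.17 kb (interquartile range 1.57 to 17.1 kb), against 9.58 kb on the other chromosomes, 4.85 kb in the left piRNA domain and 4.84 kb in the centre. No gap was under 202 bp in the arm or under 200 bp in the whole list. Of the 347 gaps, 55, or 15.9%, were 1000 bp or less, beside 12.6% over the whole list and 10.4% on the other chromosomes. The share was 17.2% in the left piRNA domain, 15.3% in the centre and 23.0% in the right piRNA domain.

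Joined where gaps were at most 5000 bp, the 348 members formed 189 runs, of which 118 were single regions and 12 held 5 or more. The sizes of runs are not set against other areas here. The longest runs had 10 members each. One ran from 4019002 to 4035281, over 16.3 kb, with strengths up to 18.6, and 4 of its members were in both replicate lists. The other ran from 4464349 to 4482989, over 18.6 kb, and includes the widest member. A run of 8 from 4396204 to 4407623 lay in the same last bin, and another of 8 ran from 1054848 to 1070835. The pair of strong regions near 0.66 Mb belongs to a run of 5 over 9.88 kb, from 654542 to 664417.

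Near neighbours were common beside the strong members, and most of these neighbours were weak. Of the 20 strongest in both replicates, 10 had another combined region within 1000 bp. Over the arm this held for 100 of 348 members, or 28.7%, and over the whole list for 1398 of 6192 regions, or 22.6%. In the strongest 10% of the whole list it held for 14 of the 32 arm regions and 178 of the 620 regions in all, or 28.7%. The 10 regions had 12 companions, with strengths between 2.10 and 8.83 and a median of 3.28, and 2 of the companions were in both replicate lists. The widest member alone had 3 of them. These counts are descriptions.

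No member is assigned to a gene, an intergenic stretch or a repeat here, and no sequence is printed. The gene names used for this organism come with assembly WBcel235, which differs from the WS220 of the lists, and no genome sequence of either build was used.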

How the data were processed

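Per the file headers, regions were called with PeakSeq and placed in WormBase WS220, and each carries a q-value deposited by the authors. All q-values were below 0.01. The deposited sample sheet says that ChIP alignments were merged for the combined list, that each replicate list used 1 ChIP library, and that all 3 shared a combined input signal. It names WS190. Comments in the lists record a move between builds that changed the shape of 4 combined regions, none on chromosome IV. For the aligner and the PeakSeq version and settings, the sources used here give nothing. The sheet gives 36-base reads and, as rounded numbers, 2500000 and 2800000 uniquely mapped reads in ChIP replicates 1 and 2 and 6000000 in either input.

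Numbers, ranks and shares hold for the lists as analysed here: the strongest region of either replicate list, on chromosome II, has no counterpart in the combined list used. Lists were read unfiltered with Python 3.11.15, numpy 2.4.6, pandas 2.3.3 and scipy 1.17.1, and plotted with matplotlib 3.10.9. Lists overlapped at 1 bp or more. Densities were compared by two-sided exact binomial tests given span lengths, with Benjamini-Hochberg adjustment over 4 tests, and chromosome lengths ended at the last called region of any list. Intervals cover counting error only, and reads that PCR copied, with no molecular identifiers, are not independent. The density test was tried before use on simulated independent counts, which cannot show how it behaves where regions cluster. Named regions are the 20 strongest in both replicates, the 3 strongest of each other class of support and of replicate regions missing from the combined list, the 3 widest, those at both bounds, the longest empty stretches and the extreme bins. Runs and companions were chosen after their values were seen. The members, lists and areas were chosen with earlier results of these data known.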

Additional observations from a re-analysis of the deposited data

How the results depend on the processing

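Of 64 alternatives to 8 values, 49 kept the direction and the side of the threshold or stayed within the interval of the value, or within 1.5 times for the number of regions. Every density ratio kept its direction in all its alternatives. Over them the ratio to the whole of the other chromosomes ran from 1.23 to 1.48. Against only their first 4.5 Mb it was 1.81, and 1.66 with regions within 1000 bp merged. The ratio to the left piRNA domain ran from 0.70 to 0.82 and that to the centre from 0.73 to 0.85. For the right piRNA domain the range was 0.41 to 0.73. After merging within 5000 bp the exact binomial test was lost against the left piRNA domain (0.82) and the centre (0.85), with an adjusted p of 0.089 for each. This merging brought the number to 189 and the density to 42.0 per Mb, and every density ratio was weaker than without it. The ratio to the other chromosomes went from 1.47 to 1.23 and that to the right piRNA domain from 0.46 to 0.73. Why the test was lost was not tested. The best scored 50% of the list held 165 arm regions, or 36.7 per Mb, of which 73.3% were in both replicates, with a median width of 411 bp. Merging within 1000 bp gave 65.1 per Mb. Regions found in both replicates gave 27.1 per Mb and a median width of 436 bp. Single replicate lists gave 149 to 232 regions, 33.1 to 51.6 per Mb and median widths of 308.5 to 365 bp. These settings keep fewer regions, and why widths moved was not tested. The first 4.5 Mb of other chromosomes as the comparison, with and without merging, was chosen after seeing the data. No paired analysis was possible because none of the lists gives values per input library. Depth and reads behind each region are not in the lists, so how far depth limits the weak calls was not tested.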
